A study of Bactrocera dorsalis with 16 samples.

Results

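The microRNAs miR-263a and miR-263b were followed in adult females of the oriental fruit fly, Bactrocera dorsalis, in the ovary and in the fat body. Members were all entries of the deposited table named miR-263, miR-263a or miR-263b, whatever the species prefix, arm or end suffix. This gave 10 entries and, after entries with the same sequence were summed, 9 of the 747 distinct sequences, 5 named miR-263a and 4 named miR-263b. The choice used names and no measured value, though it was made with earlier results of these data known. Of the 9, 5 passed the filter for testing, a signal of 10 or more in 2 or more libraries, among 321 sequences tested in all, and the other 4 are described by their reads alone.

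The 16 libraries form 8 groups of 2, ovary and fat body at 1, 5, 9 and 13 days after eclosion, the emergence of the adult from the pupal case. All flies were untreated females of a laboratory stock kept on an artificial diet of yeast extract and sugar, with no genotype or agent set apart. The design text calls the members of each group biological replicates, and the p-values measure the spread between these samples.

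MicroRNAs are short RNAs cut from hairpin precursors. Either strand of a hairpin, the 5p or the 3p arm, can be loaded into an Argonaute protein, and bases 2 to 8 of the loaded strand, the seed, set most of its pairing with target messenger RNAs. In Drosophila, miR-263a and miR-263b repress the cell death gene hid and protect the sensory bristle cells from being lost. Drosophila miR-263a also limits subunits of an epithelial sodium channel in the gut. Eggs are made in the ovary, and yolk protein in the fat body, which also stores fat.

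The sequences below are those of the deposited table, written 5′ to 3′ with T for U. They are shown because the 2 paralogs differ in the seed, and because the bases of an entry do not in every case settle its paralog. Capitals mark the seed.
bdo-miR-263a_R-3: aATGGCACtggaagaattcac
aae-miR-263a-5p_R+2: aATGGCACtggaagaattcacgggt
dvi-miR-263a-3p: cGTGATCTcttagtggcatcta
bdo-miR-263b: cTTGGCACtgggagaattcacag
bdo-mir-263b-p3_1ss21AG: gTGGTTCTttgggtgccaaagc
aae-miR-263b-5p_L-2R-1_1ss12GA: tGGCACTGgaagaattcaca
api-miR-263b_L-1R-3_1ss7AT: tTGGCTCTggaagaattcac

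With positions counted from 1 at the 5′ end of bdo-miR-263a_R-3, the base of miR-263a first and that of bdo-miR-263b second, the paralogs differ by A1C, A2T and A12G and share 18 of 21 aligned bases. A2T is the substitution inside the seed, which reads ATGGCAC in miR-263a and TTGGCAC in miR-263b. In the table the miR-263a seed was carried by 3 sequences, all of them members. The miR-263b seed was carried by bdo-miR-263b and by 1 entry named miR-96 after a tick miRNA, which had 16 reads in 7 libraries, a highest value of 9.21 and no test.

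The 25-base form aae-miR-263a-5p_R+2 is the 21-base form with 4 more bases at its 3′ end. A further member, aae-miR-263a-5p_R+2_1ss1AN, has the same 25 bases with an uncalled first base and stood in the table as 2 identical entries, which were summed. Of the entries named miR-263b, aae-miR-263b-5p_L-2R-1_1ss12GA has 19 bases aligned with bdo-miR-263a_R-3 without a mismatch and, relative to bdo-miR-263b, the substitution G12A. Its last base lies past the end of bdo-miR-263a_R-3. That base is the a of bdo-miR-263b at position 22, where the 25-base miR-263a form has g, so the bases do not settle its paralog. The entry api-miR-263b_L-1R-3_1ss7AT has 2 mismatches to either paralog. Together they held 9.0 recovered reads over the 16 libraries. They count as miR-263b by name in the ratios below, and ratios of the main sequences alone are given beside them.

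Values are the authors' normalised signal, and the sum per library ranged from 434089 to 1155602. The spacing of low values gave recovered reads of 193955 to 1865187 per library, fewest at day 5, and these are less sure for the ovary library labelled day 9 replicate 2. The labelled tissues were set against miRNA marker lists. The ovary list was of miR-989, miR-318, miR-994, miR-92a and miR-92b, and the fat body list of miR-274, miR-252, miR-8 and miR-277. Both were taken with earlier results of these data known, so they are no independent check of the labels. The most abundant sequence of the fat body list, of miR-8, had a mean value of 129298 and the next 3872. Without the day 9 second replicates the ovary list held 0.856% to 27.4% of the signal in the 7 ovary libraries and 0.0391% to 0.508% in the 7 fat body libraries. The fat body list held 4.14% to 10.05% and 23.3% to 36.7%. The libraries labelled day 9 replicate 2 went against this: the ovary list held 5.11% in the ovary-labelled library and 28.0% in the fat-body-labelled library, and the fat body list 27.8% and 9.89%. Over the 321 tested sequences, the ovary-labelled library correlated with fat body day 9 replicate 1 at r = 0.942 and with its own mate at 0.902. The fat-body-labelled library correlated with ovary day 9 replicate 1 at r = 0.9754 and with its mate at 0.801. Both are kept under their labels below, shown apart, and tests are given with and without them.

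miR-263a ranked between 3 and 29 among the sequences of every library, and its level rose steeply in the ovary between day 1 and day 13 while no change passed the test in the fat body. Nearly all of it was the 21-base 5p sequence bdo-miR-263a_R-3, which held 98.2% of the summed signal of all 9 members.

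In the ovary the normalised signal of bdo-miR-263a_R-3 was 2576 and 2399 at day 1 and 4473 and 5842 at day 5. At day 9 it was 33072 in replicate 1 and 9790 in the library labelled replicate 2, and at day 13 it was 61556 and 57919. Each ovary day lay wholly above the day before it, and the labelled day 9 replicate 2 stood far under its mate.

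The signal of bdo-miR-263a_R-3 in the fat body was 8312 and 7939 at day 1 and 9056 and 6899 at day 5. At day 9 it was 10123 in replicate 1 and 30555 in the library labelled replicate 2, and at day 13 it was 9860 and 8789. Without the day 9 second replicate the 7 fat body libraries stayed between 6899 and 10123. The labelled fat body day 9 replicate 2 was near the ovary day 9 replicate 1, and the labelled ovary day 9 replicate 2 was near the fat body day 9 replicate 1.

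The ovary lay under the fat body in every library at days 1 and 5 and above it in every library at day 13. Group means were 2488 ± 125 in ovary and 8126 ± 264 in fat body at day 1, and 59737 ± 2572 and 9324 ± 757 at day 13 (SD, n = 2 each). By rank among all sequences of a library, bdo-miR-263a_R-3 moved in the ovary from 28 and 29 at day 1 to 3 and 5 at day 13. Fat body ranks stood at 12 and 11 at day 1 and at 14 and 16 at day 13.

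**Figure D1:**
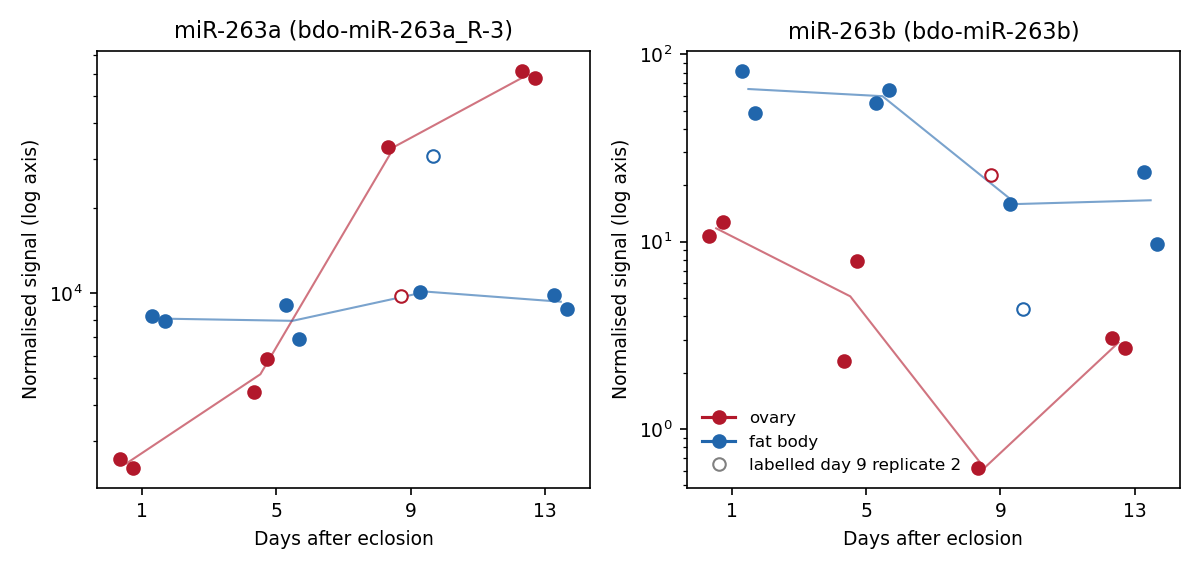
Normalised signal (log axis) of bdo-miR-263a_R-3 on the left and bdo-miR-263b on the right, by days after eclosion, with a point for each library and lines through the day means without the open points, the libraries labelled day 9 replicate 2. The ovary points of miR-263a climb from 2399 at day 1 to 61556 at day 13 while the filled fat body points stay between 6899 and 10123, and the filled ovary points of miR-263b lie under those of fat body at each day.

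As a share of the summed signal of a library, all sequences named miR-263a together held 0.503% and 0.446% in the ovary at day 1 and 1.02% and 1.38% at day 5. They held 4.87% in ovary day 9 replicate 1, 1.54% in the labelled replicate 2, and 7.66% and 5.997% at day 13. The fat body share was 1.23% and 1.16% at day 1, 1.40% and 1.10% at day 5, and 0.920% and 0.770% at day 13, with 1.12% in day 9 replicate 1 and 4.38% in the labelled replicate 2. The day 1 and day 13 groups of the 2 tissues did not overlap, in opposite directions. At day 5 the ovary library with 1.38% lay between the fat body libraries. Over all days the mean ovary share was 1.42 percentage points higher, from 2.93% ± 2.82 in ovary and 1.51% ± 1.17 in fat body (SD, n = 8 each), a difference that an exact two-sided permutation test within days did not call (p = 0.211, adjusted p over 4 such tests = 0.211, smallest p this design allows 0.00154). The difference was 2.24 percentage points without the day 9 second replicates (exact permutation p = 0.162, adjusted p = 0.216) and 0.485 when the 5 most abundant sequences were left out of each library's total (exact permutation p = 0.636).

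**Figure D2:**
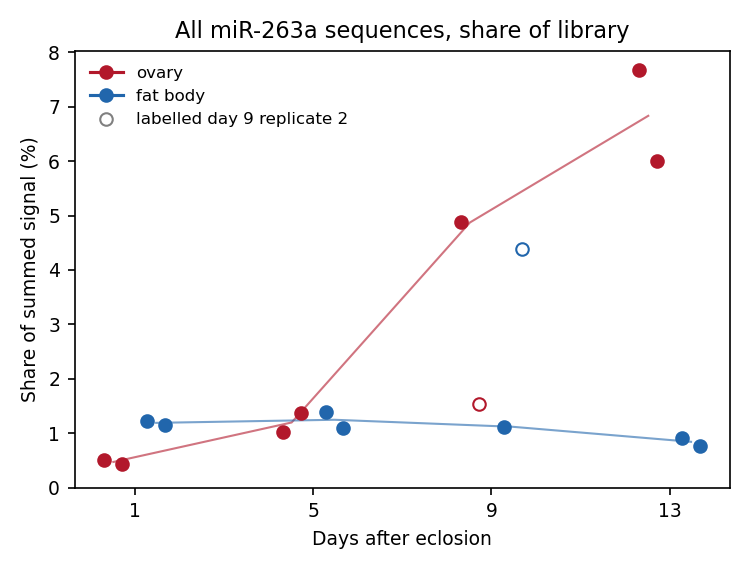
Share of the summed signal of each library held by all miR-263a sequences, in percent, by days after eclosion, with a point for each library and lines through day means without the open points, the libraries labelled day 9 replicate 2. The ovary share goes from 0.446% and 0.503% at day 1 to 5.997% and 7.66% at day 13, and the filled fat body points lie between 0.770% and 1.40%.

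Changes over days were tested with limma on log2(value + 1) over all 321 sequences, so fold changes of low sequences are understated. From day 1 to day 13 bdo-miR-263a_R-3 rose in the ovary by 4.59 on the log2 scale (SE 0.57, 24.0-fold, limma adjusted p = 0.000149). In this comparison 32.4% of all tested sequences were called, and 4 of the 5 tested members were, all higher. These 4 all carry the name miR-263a and are not independent, so counts of members, here and below, do not stand for as many miRNAs. Most of the rise fell between day 5 and day 13, with a log2 change of 3.55 (limma adjusted p = 0.000561), where 26.8% of all sequences and 4 of the 5 members were called. From day 1 to day 5 the log2 change was 1.04 (limma adjusted p = 0.415). limma called no sequence in that step, 0.0% of those tested, with 48 of the 321 at an unadjusted p under 0.05, and on recovered reads edgeR called 0 and DESeq2 12. Without the day 9 second replicates, whose spread enters every test, the step from day 1 to day 5 had the same log2 change of 1.04 with a limma adjusted p of 0.0127, 2 of 5 members and 9.97% of all sequences being called. The other steps then had adjusted p of 7.90e-07 for day 13 against day 5 and 1.30e-07 for day 13 against day 1, with 48.0% and 49.8% of all sequences called.

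The ovary rise of bdo-miR-263a_R-3, in both comparisons with day 13, stood in each of the 16 fits that left out 1 library. From day 5 to day 13 the other called members were less steady: aae-miR-263a-5p_R+2 missed the threshold without ovary day 5 replicate 1 (limma adjusted p = 0.0541) or ovary day 13 replicate 1 (0.0664), dvi-miR-263a-3p in 6 of the 16 fits and aae-miR-263a-5p_R+2_1ss1AN in 8. Both were lost without any single ovary library of day 5 or day 13, with adjusted p of 0.0767 to 0.190 and 0.107 to 0.158. The size of the rise moved with the scaling: from day 5 to day 13 it was 2.52 with values divided by the summed signal, and from day 1 to day 13 it went to 3.84 on the log2 scale with values divided by the summed signal and 3.89 with edgeR on recovered reads. The median of all tested sequences shifted by -0.62 (log2) under the summed signal, from 0.33 to -0.29, so the rise relative to that median was close to the same under both.

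In the fat body the change of bdo-miR-263a_R-3 from day 1 to day 13 was 0.20 on the log2 scale (SE 0.57, limma adjusted p = 0.899), and it was -0.50 with values divided by the summed signal. No member was called in the fat body at any step, against 6.85% of all sequences called for day 13 against day 1, 9.66% for day 13 against day 5 and 0.935% for day 5 against day 1. No member was called without the day 9 second replicates either, against 24.3%, 21.2% and 9.97% of all sequences, and the adjusted p of bdo-miR-263a_R-3 ran from 0.410 to 0.973 in limma.

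The change from day 1 to day 13 differed between the tissues by 4.39 on the log2 scale for bdo-miR-263a_R-3 (SE 0.80, limma interaction, adjusted p = 0.00858). Called in this interaction were 4 of the 5 tested members and 14% of all sequences, and 32.4% without the day 9 second replicates, when the adjusted p was 2.64e-06. The adjusted p in the fit to 16 libraries was 0.0505 without ovary day 1 replicate 2 and 0.0504 without ovary day 13 replicate 1, with log2 values of 4.34 and 4.35.

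Ovary and fat body were also compared day by day. At day 1 bdo-miR-263a_R-3 was at a level 3.27-fold lower in ovary, a log2 difference of -1.71 that missed the threshold with all libraries (limma adjusted p = 0.166, 3.12% of all sequences and no member called). When the day 9 second replicates were left out, the same difference had an adjusted p of 0.000122, with 18.1% of all sequences and 4 of the 5 members called lower in ovary, and leaving out any 1 of the 4 day 9 libraries brought it to between 0.0265 and 0.0486 in limma. At day 5 the log2 difference was -0.63 (limma adjusted p = 0.561, 2.18% of all sequences and no member called), and 0.0333 without the day 9 second replicates, with 27.4% of all sequences and 2 members called. At day 13 bdo-miR-263a_R-3 was 6.41-fold higher in ovary, a log2 difference of 2.68 (SE 0.57, limma adjusted p = 0.00300), with 44.9% of all sequences called and 4 of the 5 members, all higher in ovary. That call held in each of the 16 fits without 1 library. Its adjusted p was 1.91e-06 without the day 9 second replicates, with 55.1% of all sequences called, 4 members higher and 1 lower.

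At day 9 the labelled groups overlapped, and the log2 difference was 0.03 (limma adjusted p = 0.994). limma called no sequence there, 0.0% of those tested, with 1 at an unadjusted p under 0.05. On recovered reads, 0 were called by edgeR and 0 by DESeq2. The replicate 1 libraries alone, 1 per tissue and so without a replicate check at that day, differed by 1.71 on the log2 scale, higher in ovary.

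Over the mean of the 4 days the opposite differences of bdo-miR-263a_R-3 nearly cancelled, at a log2 difference of 0.09 (SE 0.28, limma adjusted p = 0.821), whose sign turned to -0.02 with scaling by the median of ratios. Of the 5 members 1 was called, against 37.1% of all sequences. Leaving out the day 9 second replicates gave a difference of 0.51 (limma adjusted p = 0.00195), and 3 of the 5 members were called, against 54.2% of all sequences. In bulk tissue, fewer cells of a type and less of an RNA per cell cannot be told apart.

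**Figure D3:**
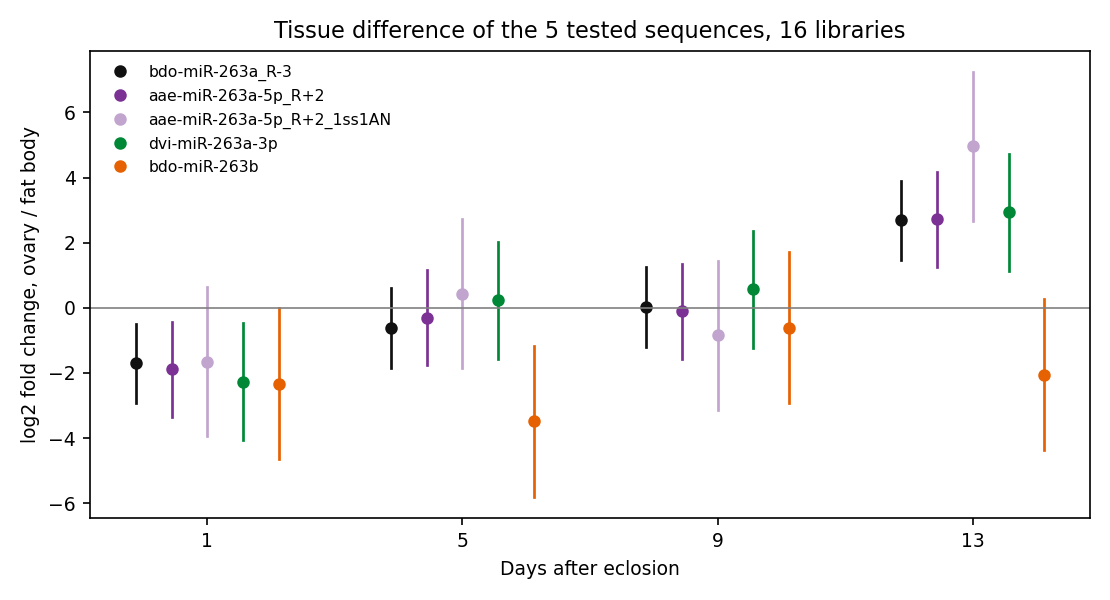
Fitted log2 fold change of ovary over fat body for the 5 tested sequences at each day, from limma on all 16 libraries, with bars for the 95% interval. The 4 miR-263a sequences lie under 0 at day 1 and above 0 at day 13, where bdo-miR-263a_R-3 stands at 2.68, and bdo-miR-263b lies under 0 at each day.

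Markers of other tissues moved over the same days. The muscle list, 6 sequences, was in effect a measure of miR-1. Its most abundant sequence, bdo-miR-1, had a mean value of 32719, and its miR-133 sequence one of 1.13. In the ovary the muscle list held 4.32% to 4.97% of the signal at days 1 and 5. It held 0.483% to 0.710% in ovary day 9 replicate 1 and day 13, and 6.33% to 8.07% in the 7 fat body libraries. The nerve list, 7 sequences of which 3 to 6 were detected in a library, held 0.0749% and 0.133% in the ovary at day 1 and 0.0196% and 0.00519% at day 13. In the fat body it held 0.156% and 0.152% at day 1 and 0.0482% and 0.0273% at day 13, higher than in the ovary at both days. In the day 9 second replicates the muscle list held 6.71% in the ovary-labelled library and 1.23% in the fat-body-labelled library. The part of muscle carried along with the ovary in the rise of miR-263a was not tested.

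The longer 5p form and the 3p arm of miR-263a followed the main sequence. The 25-base aae-miR-263a-5p_R+2 had a signal in the ovary of 24.4 and 35.4 at day 1, 71.4 and 99.6 at day 5, 413.7 in day 9 replicate 1, 122 in the labelled replicate 2, and 1010 and 446 at day 13. Fat body values lay between 94.7 and 147, apart from 402 in the labelled day 9 replicate 2. From day 1 to day 13 it rose in the ovary by 4.46 on the log2 scale (limma adjusted p = 0.000250), and at day 13 it was higher in ovary by 2.72 (limma adjusted p = 0.00655, and 0.0658 without ovary day 13 replicate 1). Without the day 9 second replicates these adjusted p were 1.04e-05 and 0.000299. The 25-base forms together made up 0.899% to 1.82% of the miR-263a 5p signal in ovary libraries and 1.07% to 1.65% in fat body libraries, so their share was low and of like size in both tissues.

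The form with an uncalled first base had summed values of 2.16 to 123.54 in ovary and 0 to 50.2 in fat body, the value of 50.2 being that of the labelled day 9 replicate 2. It rose in the ovary by 4.42 on the log2 scale from day 1 to day 13 (limma adjusted p = 0.00646, 0.0526 without ovary day 1 replicate 1, and 0.00325 without the day 9 second replicates).

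The 3p arm, dvi-miR-263a-3p, is the strand opposite the main one in the hairpin and was low throughout. Its signal in the ovary was 1.44 and 1.97 at day 1, 16.1 and 26.0 at day 5, 117 in day 9 replicate 1, 21.4 in the labelled replicate 2, and 162 and 105 at day 13. Fat body libraries lay between 11.6 and 24.6, apart from 64.4 in the labelled day 9 replicate 2. It rose in the ovary by 5.61 on the log2 scale from day 1 to day 13 (limma adjusted p = 0.000240). At day 13 it was higher in ovary by 2.94 (limma adjusted p = 0.0139), a call lost without ovary day 13 replicate 1 (adjusted p = 0.0865), fat body day 13 replicate 1 (0.0653) or fat body day 13 replicate 2 (0.0569). With the day 9 second replicates left out, the adjusted p in limma was 1.39e-05 for the rise and 0.00104 for day 13, and a change of 2.998 from day 1 to day 5 in the ovary was called too (0.0127).

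The 5p arm outnumbered the 3p arm within every library. In the ovary the 5p to 3p ratio was 1808 and 1239 at day 1, where it rests on 2 and 4 reads of the 3p arm, 283 and 229 at day 5, 286 in day 9 replicate 1, 463 in the labelled replicate 2, and 387 and 557 at day 13. The fat body ratio was 729 and 650 at day 1, 373 and 572 at day 5, 593 and 482 at day 9 in replicates 1 and 2, and 651 and 523 at day 13. Day 1 ovary had the highest ratios of all groups, and at days 5 and 9 the ovary libraries lay under those of fat body. Over the 4 days the log2 ratio was lower in ovary by 0.27, with means of 8.78 ± 0.80 in ovary and 9.05 ± 0.28 in fat body (SD, n = 8 each), and an exact two-sided permutation test within days gave p = 0.205 (adjusted p = 0.211). A pseudocount of 10 in place of 1 lowers the ratio most where 3p values are lowest, as in the ovary at day 1. With it the difference was -0.44 and the adjusted p of the exact test 0.0401. With a pseudocount of 0.1 the difference was -0.17 (exact permutation p = 0.514), so the call rests on the pseudocount. Without the day 9 second replicates and with a pseudocount of 1 it was -0.38, with an exact permutation p of 0.245. The other entry named for this arm, bmo-miR-263a-3p_L+1R-1, had 1 read in 1 library.

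miR-263b was far scarcer than miR-263a and was lower in ovary than in fat body. All 16 libraries held bdo-miR-263b, with 419 recovered reads in total against 365637 of bdo-miR-263a_R-3.

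In the ovary the normalised signal of bdo-miR-263b was 10.8 and 12.8 at day 1, 2.30 and 7.92 at day 5, 0.62 in day 9 replicate 1, 22.8 in the labelled replicate 2, and 3.08 and 2.71 at day 13. In the fat body it was 81.9 and 48.7 at day 1, 55.3 and 64.4 at day 5, 15.9 in day 9 replicate 1, 4.37 in the labelled replicate 2, and 23.6 and 9.72 at day 13. Every fat body library lay above every ovary library of the same day, except at day 9, where the labelled second replicates reversed the order.

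The reads behind these values were few in the ovary, 41 at day 1, 8 at day 5 and 10 at day 13 in the 2 libraries of each group together. Per 1000000 recovered reads, bdo-miR-263b stood in ovary at 22.4 at day 1, 13.8 at day 5 and 3.40 at day 13, with exact Poisson 95% intervals of 16.1 to 30.4, 5.98 to 27.3 and 1.63 to 6.24. In fat body it stood at 102 at day 1, 95.2 at day 5 and 14.9 at day 13, with intervals of 89.9 to 116, 72.6 to 123 and 9.93 to 21.6. The intervals cover counting error only, with the 2 libraries of a group pooled, and leave out the spread between them. In fat body day 13 these had 20 and 8 reads of bdo-miR-263b, out of 921486 and 951525. PCR copies of a molecule were not told apart. By counting error alone, the interval of the fat body lay above that of the ovary at days 1, 5 and 13.

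Over the mean of the 4 days bdo-miR-263b was lower in ovary by 2.12 on the log2 scale, a fitted fold of 4.36 that depends on the pseudocount (SE 0.54, limma adjusted p = 0.0103). That call held under every alternative and in each of the 16 fits without 1 library. Its size was -2.81 without the day 9 second replicates (limma adjusted p = 9.28e-05) and -1.26 with a pseudocount of 10. The log2 difference was -2.33 at day 1, -3.48 at day 5 and -2.06 at day 13, with limma adjusted p of 0.326, 0.0687 and 0.125 in 16 libraries and of 0.0356, 0.00384 and 0.0234 without the day 9 second replicates. At day 9 it was -0.62 (limma adjusted p = 0.994) with the labelled replicates and -3.38 between the replicate 1 libraries alone.

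From day 1 to day 13 the fitted log2 change of bdo-miR-263b was -1.71 in ovary and -1.98 in fat body, and neither passed the test (limma adjusted p = 0.239 and 0.278, and 0.0544 and 0.0519 without the day 9 second replicates). The difference between these changes was 0.27 (limma adjusted p = 0.927). The nerve list, given above, was lower at day 13 than at day 1 in both tissues, as bdo-miR-263b was. Both were also lower in ovary than in fat body at these 2 days. At day 5 the tissues overlapped in the nerve list, with 0.0835% and 0.0625% in ovary and 0.119% and 0.0792% in fat body. The values of bdo-miR-263b did not overlap at day 5. The part of nerve in the values of bdo-miR-263b was not tested. The other arm of miR-263b, bdo-mir-263b-p3_1ss21AG, had 1 read in 1 library, fat body day 5 replicate 2, so its ratio to the main arm was not tested.

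The balance of the paralogs was measured within each library as the ratio of all miR-263a to all miR-263b 5p sequences, which does not depend on scaling. In the ovary it was 241 and 191 at day 1, 1981 and 751 at day 5, 36049 in day 9 replicate 1, 435 in the labelled replicate 2, and 14248 and 16189 at day 13. For the fat body it was 102 and 163 at day 1, 166 and 106 at day 5, 570 in day 9 replicate 1, 7095 in the labelled replicate 2, and 423 and 914 at day 13. Ovary libraries lay above fat body libraries at days 1, 5 and 13 without overlap, and the ratio of both tissues was higher at day 13 than at day 1. The value of 36049 rests on 1 read of miR-263b, with an exact 95% interval from 9643 to 2122183.

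For the test a pseudocount of 1 was added to both sums, so where miR-263b is low the tested ratio does depend on scaling. Over the 4 days the log2 ratio was higher in ovary by 2.13, a 4.37-fold difference of mean log2 ratios of 10.6 ± 2.74 in ovary and 8.496 ± 1.97 in fat body (SD, n = 8 each). An exact two-sided permutation test within days gave p = 0.0355, and after adjustment over the 4 tests of this kind p = 0.0710, which misses the threshold, with the ovary higher at 4 of 4 days. With a pseudocount of 10 the log2 difference was 1.34, 2.53-fold (exact permutation p = 0.0602, adjusted p = 0.0802). With a pseudocount of 0.1 it was 2.35, 5.09-fold (exact permutation p = 0.0340, adjusted p = 0.0679). The ovary was higher at 3 of 4 days without ovary day 9 replicate 1 (log2 1.45, exact permutation p = 0.154) or fat body day 9 replicate 1 (1.70, p = 0.142). Without the day 9 second replicates the log2 difference was 3.23, 9.36-fold, and the exact permutation p was 0.00463, the smallest that design allows, with an adjusted p of 0.00926. With the main sequence of each paralog alone it was 2.22 (exact permutation p = 0.0386, adjusted p = 0.0772). The share of the library held by miR-263b was lower in ovary by 0.00404 percentage points, from 0.00142% ± 0.00121 in ovary and 0.00546% ± 0.00459 in fat body (SD, n = 8 each). The exact permutation p was 0.0201 and the adjusted p 0.0710, and without the day 9 second replicates 0.00463 and 0.00926.

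**Figure D4:**
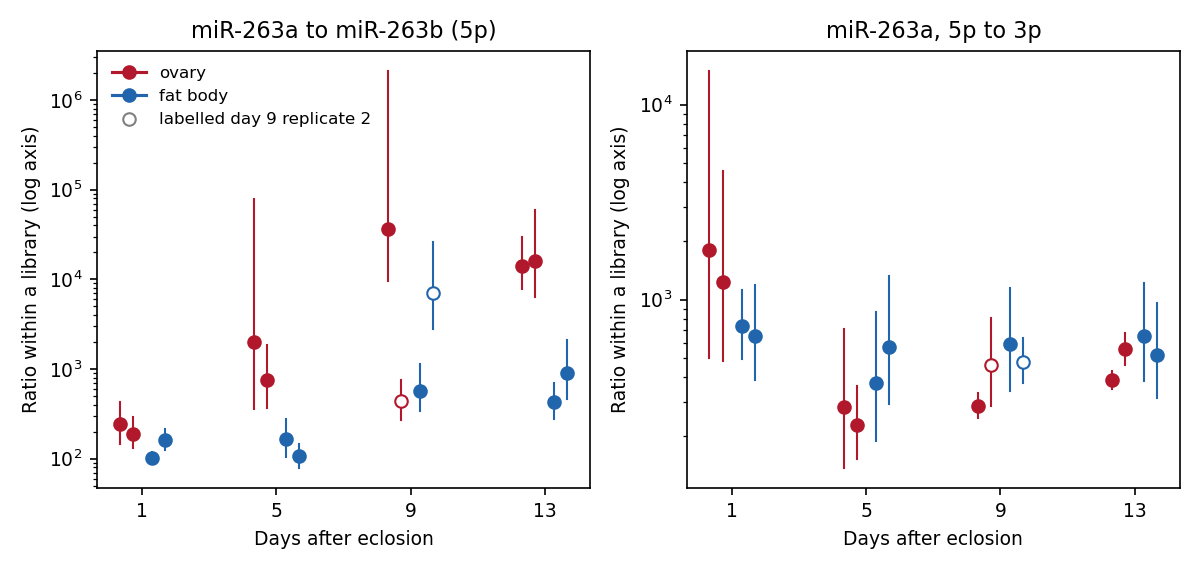
Ratios within each library (log axes) of all miR-263a to all miR-263b 5p sequences on the left and of the 5p to the 3p arm of miR-263a on the right, by days after eclosion, with exact 95% counting intervals as bars and open points for the libraries labelled day 9 replicate 2. On the left the ovary points go from 191 and 241 at day 1 to 14248 and 16189 at day 13, and on the right the points lie between 229 and 1808.

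Other sequences were ranked by the correlation of log2(value + 1) with each paralog over the 14 libraries other than the day 9 second replicates, among 150 tested sequences with a group mean of at least 100. The closest to bdo-miR-263a_R-3 were bdo-miR-309a_R-2 with r = 0.927, bdo-mir-4-p5 with 0.924, bdo-mir-5a-p3 with 0.917, bdo-miR-309b with 0.914 and bdo-miR-6 with 0.911. These points share tissue and day, and the levels had another shape: bdo-miR-6 had a mean signal in the ovary of 16.5 at day 1 and 47478 at day 13, a wider range than that of bdo-miR-263a_R-3. The closest to bdo-miR-263b were bdo-miR-981 with r = 0.821, bdo-miR-281 with 0.805, dme-miR-278-3p with 0.780, bdo-miR-137, a sequence of the nerve list, with 0.773 and bdo-mir-281-p3 with 0.769. The paralogs themselves correlated at r = -0.43 over these libraries.

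Other miRNAs that restrain cell death in Drosophila were taken as a list of the miR-2, miR-6, miR-11, miR-13, miR-14 and miR-308 names, 34 sequences of which 28 were tested. The list went by name, so it holds sequences of both arms and not the main strand alone. The miRNA bantam was planned for it too, but no sequence was matched to that name. From day 1 to day 13 in the ovary 7 of the 28 were called higher and 2 lower, near the 32.4% called among all tested sequences, with a median log2 change of 0.22 beside 0.33 for all. In the fat body 1 was called higher and 0 lower, against 6.85% of all, with a median of 0.07 beside 0.27. Leaving out the day 9 second replicates, 9 were higher and 6 lower in the ovary, against 49.8% of all, and 6 higher and 3 lower in the fat body, against 24.3%. In the ovary bdo-miR-6, of a family that targets the cell death genes reaper, hid and grim in Drosophila, rose by 11.38 on the log2 scale (limma adjusted p = 0.000149), and bdo-mir-308-p3 rose by 5.79 (limma adjusted p = 0.000205). The change of bdo-miR-11, which represses hid and reaper in Drosophila, was smaller at 1.33 (limma adjusted p = 0.0407). The log2 change was 0.22 for bdo-miR-14, a repressor of cell death and a regulator of fat metabolism in Drosophila, and 1.01 for bdo-miR-13a. Neither passed the test with all 16 libraries (limma adjusted p = 0.692 and 0.119). Without the day 9 second replicates bdo-miR-13a passed it at the same log2 change, and bdo-miR-14 did not. The change of bdo-miR-2a-2_L+2R-2, of the family that also targets reaper, hid and grim in Drosophila, was -0.91 (limma adjusted p = 0.244, and 0.0193 without the day 9 second replicates). In the fat body bdo-miR-14 rose by 1.74 (limma adjusted p = 0.0139). Over the mean of the 4 days 7 of the 28 were higher in ovary and 2 lower, against 37.1% of all sequences called, with a median log2 difference of 0.57 beside 0.20 for all tested sequences, and 15 were higher and 3 lower without the day 9 second replicates, against 54.2% of all.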

How the data were processed

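Small RNA was sequenced from 16 libraries. Per the labels' protocols, Trizol was used for RNA extraction, an Illumina TruSeq small RNA kit for the libraries and a HiSeq instrument for sequencing, and reads were cleaned with the program ACGT101-miR. Not given in the sources used here were the aligner, genome build and scaling method. The deposited table holds normalised signal per mature sequence, marked as norm per the file headers. Its 41 repeated entries had values identical to another entry of the same sequence and were summed. Reads were recovered by dividing by the value of 1 read, which made 86.5% to 92.9% of low values whole within 0.1 of a read. These reads were used for the alternatives and for counting intervals.

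The filter for testing was a signal of 10 or more in 2 or more libraries. limma 3.58.1 (R 4.3.3) fitted 8 group means to log2(value + 1) with an intensity trend, and Benjamini-Hochberg adjustment ran over all 321 sequences within a comparison, with a threshold of 0.05. Library ratios and shares were compared by exact two-sided permutation of tissue labels within days, adjusted over 4 tests. Alternatives were other pseudocounts, filters and scalings, edgeR 4.0.16 and DESeq2 1.42.0 on recovered reads, leaving out libraries, and a replicate block. Replicate numbers were not treated as pairs: replicate differences of 28 pairs of groups correlated between -0.753 and 0.362, with 9 above 0.1. For ovary with fat body of the same day the correlation was 0.083, 0.248 and 0.089 at days 1, 5 and 13. The value of -0.753 is that of day 9, where the second replicates stand apart, so it cannot decide on pairing. The limma and edgeR fits were also run on simulated reads with known tissue changes. The simulation gave all libraries the same spread and kept each tissue change the same at every day. It held no libraries like the day 9 second replicates, so it cannot show how the fits behave with them.

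All members are named. Beyond them the text names the 5 sequences most correlated with each paralog and, for each miRNA of the cell death list, its most abundant tested sequence. The members, lists and tests were chosen with earlier results of these data known.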

Additional observations from a re-analysis of the deposited data

Results flagged for a closer look

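The change from day 1 to day 13 differed between ovary and fat body by the limma interaction test for 4 miR-263a sequences, rising in the ovary and not called in the fat body. The difference on the log2 scale was 4.39 for bdo-miR-263a_R-3 (adjusted p = 0.00858), 5.21 for dvi-miR-263a-3p (adjusted p = 0.0186), 4.61 for aae-miR-263a-5p_R+2 (adjusted p = 0.0161) and 6.62 for aae-miR-263a-5p_R+2_1ss1AN (adjusted p = 0.0186). The fold of the last depends on the pseudocount, because its fat body value was 0 in day 13 replicate 2. The last 3 were lost in 7, 6 and 6 of the 16 fits without 1 library. The 4 sequences carry the name of the same miRNA and are not independent of each other. Groups of 2 were too small for the test of a library's gap to the rest of its group.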

How the results depend on the processing

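The rise of bdo-miR-263a_R-3 in the ovary from day 1 to day 13 and from day 5 to day 13, its excess in ovary at day 13 and the lower mean of bdo-miR-263b in ovary kept their direction and their call under all 12 alternatives of scaling, filter, pseudocount, test and libraries that were run, and in 16 of 16 fits without 1 library. Over the 12 alternatives the rise from day 1 to day 13 ranged from 3.84 to 4.59 on the log2 scale and the excess at day 13 from 2.31 to 3.01. In the fits without 1 library they ranged from 4.53 to 4.64 and from 2.60 to 2.76. The replicate block left the log2 changes as they were, 4.59 for the rise with an adjusted p of 0.000161, and changed no call of the 60 results. Alternatives added after the data were seen were edgeR without the day 9 second replicates, summed signal without them, and paralog ratios of the main sequences alone. Without both day 9 second replicates 46 of 64 results kept direction and call, and without any 1 library 54 to 61 of 64 did. Values below are log2 differences, ovary minus fat body or later minus earlier day. The cause of the changes was not tested, beyond the fewer libraries or other scaling each alternative uses.

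Without the day 9 second replicates, calls were gained for bdo-miR-263a_R-3 at the tissue mean (0.51), day 1 (-1.71), day 5 (-0.63), day 9 (1.71, 1 library per tissue) and ovary day 5 against day 1 (1.04). For bdo-miR-263b they were gained at day 1 (-2.33), day 5 (-3.48), day 9 (-3.38) and day 13 (-2.06), and for the paralog ratio (3.23) and the miR-263b share (-0.00463 percentage points). For dvi-miR-263a-3p they were gained at the mean (0.89), day 1 (-2.27), day 9 (2.68) and ovary day 5 against day 1 (2.998), and for aae-miR-263a-5p_R+2 at day 1 (-1.89), while its 0.50 at the mean was not called (adjusted p = 0.0933). In every fit without the day 9 second replicates, day 9 has 1 library per tissue, so its calls assume that these vary like the other groups and have no replicate check of their own. At day 9 signs turned for aae-miR-263a-5p_R+2 (1.49) and aae-miR-263a-5p_R+2_1ss1AN (1.05). With edgeR on the same 14 libraries, bdo-miR-263a_R-3 gained calls at the mean (0.45), day 1 (-1.81) and day 9 (1.78), and turned sign in the fat body from day 5 to 13 (-0.0093) and day 1 to 13 (-0.37). bdo-miR-263b gained calls at day 1 (-2.59), day 5 (-3.37), day 9 (-4.38), day 13 (-2.74) and from day 1 to 13 in ovary (-2.70) and fat body (-2.55), and its difference of changes turned to -0.15. Signs turned for aae-miR-263a-5p_R+2 (1.58) and aae-miR-263a-5p_R+2_1ss1AN (1.16) at day 9 and for dvi-miR-263a-3p in the fat body from day 1 to 13 (-0.15). With the summed signal on the 14 libraries, bdo-miR-263a_R-3 gained calls at the mean (0.93), day 1 (-1.33), day 9 (2.12) and ovary day 5 against day 1 (1.31). bdo-miR-263b gained them at day 5 (-3.04), day 9 (-3.01), ovary day 13 against 1 (-2.33) and fat body day 13 against 5 (-2.63) and against 1 (-2.62). At day 9 signs turned for aae-miR-263a-5p_R+2 (1.90) and aae-miR-263a-5p_R+2_1ss1AN (1.44).

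With the summed signal, on 16 and on 14 libraries alike, signs turned in the fat body for bdo-miR-263a_R-3 from day 1 to 5 (0.058), 5 to 13 (-0.55) and 1 to 13 (-0.50), for bdo-miR-263b from day 1 to 5 (0.014) and for dvi-miR-263a-3p from day 1 to 13 (-0.24), and between tissues at day 5 for aae-miR-263a-5p_R+2 (0.25), which at day 9 turned to 0.16 on 16 libraries. The median of ratios turned bdo-miR-263a_R-3 at the mean (-0.016), day 9 (-0.020) and fat body day 1 to 13 (-0.033), and aae-miR-263a-5p_R+2 at the mean (-0.0087). edgeR on 16 libraries turned bdo-miR-263a_R-3 (-0.42) and dvi-miR-263a-3p (-0.18) in the fat body from day 1 to 13, bdo-miR-263b at day 9 (0.33) and in its difference of changes (-0.043), and aae-miR-263a-5p_R+2 at day 9 (0.15). DESeq2 turned bdo-miR-263a_R-3 at the mean (-0.017) and in the fat body from day 1 to 13 (-0.028), and bdo-miR-263b at day 9 (0.15) and in its difference of changes (-0.12). It called bdo-miR-263a_R-3 at day 1 (-1.86) and bdo-miR-263b at day 5 (-3.52) and day 13 (-2.76). A pseudocount of 10 gave calls for bdo-miR-263b at day 5 (-2.23) and for the arm ratio (-0.44).

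Leaving out 1 library at a time, bdo-miR-263a_R-3 ranged from -0.13 to 0.31 at the tissue mean, from -1.76 to -1.66 at day 1, from -0.82 to -0.43 at day 5, from -0.85 to 0.91 at day 9, from 0.85 to 1.23 for ovary day 5 against 1, from -0.24 to 0.16 for fat body day 5 against 1, and from 4.31 to 4.47 for the difference of changes. bdo-miR-263b ranged from -2.70 to -1.96 at day 1, -4.20 to -2.77 at day 5, -2.56 to 1.32 at day 9, -2.66 to -1.46 at day 13, -1.20 to 0.24 for ovary day 13 against 5, -0.45 to 0.29 for fat body day 5 against 1 and -0.33 to 0.87 for the difference of changes. The paralog ratio ranged from 1.45 to 2.80 and the miR-263b share from -0.00465 to -0.00343 percentage points. aae-miR-263a-5p_R+2 ranged from -0.12 to 0.32 at the mean, -0.99 to 0.77 at day 9 and -0.14 to 0.055 for fat body day 13 against 5. dvi-miR-263a-3p ranged from -0.25 to 0.70 at day 5, -0.63 to 1.76 at day 9 and -0.58 to 0.37 for fat body day 13 against 5. aae-miR-263a-5p_R+2_1ss1AN ranged from -2.05 to 0.36 at day 9 and -2.98 to 0.41 for fat body day 13 against 5.

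Over all alternatives the number of called sequences ranged from 57 to 160 (104 as reported) for ovary day 13 against 1, from 80 to 190 (144) for the tissues at day 13, from 78 to 196 (119) for the tissue mean and from 1 to 104 (45) for the difference of changes. It ranged from 0 to 58 (10) at day 1, 0 to 94 (7) at day 5 and 0 to 113 (0) at day 9. For ovary day 5 against 1 it ranged from 0 to 35 (0), for ovary day 13 against 5 from 44 to 154 (86), and in the fat body from 0 to 35 (3), 2 to 76 (31) and 2 to 85 (22) for day 5 against 1, day 13 against 5 and day 13 against 1. Depth limits bdo-miR-263b, with 1 recovered read in each of 2 ovary libraries, and the 3p arm of miR-263a in ovary day 1, with 2 and 4 reads.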
